A study of Mus musculus with 2 samples.

Results

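The 9 genes described here encode inhibitory receptors of T cells: Pdcd1 (PD-1), Lag3, Ctla4, Tigit, Havcr2 (TIM-3), Btla, Cd200r1, Cd5 and Cd96. They were taken as a named list, with no threshold on their values though with earlier results of these data known, and all 9 of 28692 genes in the count matrices were found. The cells were CD4 regulatory T cells (Tregs) from the spleens of male B6 Pparg-Tdt.Foxp3-Gfp mice of 8 weeks, a strain with a red fluorescent reporter of Pparg and a green one of Foxp3. The PPARg-low library came from Tregs with a low reporter signal of PPARg and the PPARg-negative library from Tregs lacking it, with spleens of 2 or 3 mice pooled. The groups thus differ in the reporter signal used to sort them and share strain, sex, age, tissue and both reporter alleles. Each group was a single library (n = 1), so differences between groups have no replicate error and were not tested, and the exact 95% intervals given in parentheses describe counting error alone. The sorted cells were profiled with droplet-based 3′ sequencing, in which each UMI (unique molecular identifier) stands for 1 captured transcript.

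Inhibitory receptors sit in the T cell membrane and, when they meet their ligands on other cells, dampen signals from the antigen receptor and from costimulatory receptors. Many do so through tyrosine motifs in their tails that recruit phosphatases, while CTLA-4 acts largely by binding CD80 and CD86 and removing them from antigen-presenting cells. Conventional T cells acquire most of these receptors after activation. In Tregs, CTLA-4 is part of the suppressive machinery that depends on Foxp3, and PD-1, LAG-3, TIGIT and TIM-3 mark activated or effector Tregs.

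In mm10 (GENCODE M21) Pdcd1 lay on chr1:94038305-94052553 (minus strand), and Ctla4 on chr1:60887000-60915832 (plus strand), between Cd28 and Icos. Lag3 was on chr6:124904361-124911705 (minus strand) next to Cd4, Havcr2 on chr11:46454935-46481255 (plus strand), and Cd5 on chr19:10717116-10739002 (minus strand) next to Cd6. The other 4 genes, Tigit, Btla, Cd200r1 and Cd96, lay within 2.471 Mb of chromosome 16. None of the 9 overlapped another protein-coding gene. The sequences just upstream of the start are shown for Pdcd1, Ctla4 and Tigit, 3 receptors that were higher in the PPARg-low library, and for Cd5, a receptor whose levels were closer, so that the upstream letters can be set beside the levels. They are 250 bases ending at the base before the RefSeq start (GRCm38.p6), 5′ to 3′ on the gene's own strand, with capitals marking each GGAAA, the core of NFAT sites, on either strand (TTTCC is its complement). NFAT is a factor activated by antigen receptor signalling. The windows are chr1:94052554-94052803 for Pdcd1, chr1:60908775-60909024 for Ctla4, chr16:43664185-43664434 for Tigit and chr19:10738975-10739224 for Cd5.
Pdcd1: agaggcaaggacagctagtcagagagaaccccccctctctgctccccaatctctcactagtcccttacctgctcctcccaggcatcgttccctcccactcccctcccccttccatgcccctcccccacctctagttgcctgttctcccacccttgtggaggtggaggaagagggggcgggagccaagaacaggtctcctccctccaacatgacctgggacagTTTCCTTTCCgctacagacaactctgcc
Ctla4: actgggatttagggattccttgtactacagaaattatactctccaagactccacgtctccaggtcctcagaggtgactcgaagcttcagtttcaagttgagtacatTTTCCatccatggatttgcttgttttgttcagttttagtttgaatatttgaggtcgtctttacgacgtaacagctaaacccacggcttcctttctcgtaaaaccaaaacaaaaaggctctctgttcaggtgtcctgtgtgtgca
Tigit: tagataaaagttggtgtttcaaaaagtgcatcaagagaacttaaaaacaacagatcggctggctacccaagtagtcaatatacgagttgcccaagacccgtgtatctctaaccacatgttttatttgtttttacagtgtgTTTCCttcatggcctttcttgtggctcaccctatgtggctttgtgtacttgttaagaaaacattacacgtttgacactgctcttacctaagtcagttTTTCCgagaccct
Cd5: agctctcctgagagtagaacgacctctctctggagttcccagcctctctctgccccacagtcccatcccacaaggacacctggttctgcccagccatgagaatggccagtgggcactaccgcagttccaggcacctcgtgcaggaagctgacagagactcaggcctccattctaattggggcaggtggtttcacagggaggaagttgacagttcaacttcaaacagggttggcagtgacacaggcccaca
The Pdcd1 window held 2 matches, which adjoin without overlap, Ctla4 held 1, Tigit 2 and Cd5 0. Of the windows not printed, Cd96, a receptor that was not higher, held 4, and Havcr2, which was higher, held 0, as did Btla, so the matches did not follow the levels. Of the 7 receptors with a RefSeq window, 4 held GGAAA, against 55.6% of 32851 upstream windows of the same length. The AP-1 motif TGANTCA, searched on both strands and never overlapping GGAAA here, was in 1 of the 7 (Havcr2), against 6.75% of all windows. A match is a description of these letters and not a measured site. The Ctla4 window lies inside the GENCODE gene, whose longest transcript begins further upstream.

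The deposited matrices held 1992 PPARg-low and 2902 PPARg-negative barcodes, of which 1619 and 2633 were kept at a mitochondrial share of at most 10%. The kept cells held 2901710 and 5897260 UMIs, with medians of 1517 and 2171 per cell. The libraries shared 5 barcode sequences, 4 among kept cells. Foxp3, Il2ra, Cd4, Cd3d, Cd3e, Cd3g, Ikzf2 and Tnfrsf18, the 8 genes listed for Tregs, were present in both libraries. Of these, Cd4, Cd3d, Cd3e and Cd3g are not particular to Tregs among T cells. Pparg had 43 UMIs in the PPARg-low and 0 in the PPARg-negative library. Foxp3 had 100 and 146 UMIs, a ratio of 1.39 (1.07 to 1.81). Markers of other cell types were low: B cell markers summed to 33.4 and 27.8 CPM (counts per 1e6 UMIs in the library), CD8 T cell markers to 31.0 and 27.6, myeloid markers to 11.7 and 2.88, and erythroid markers to 7.24 and 1.02. NK cell markers summed to 3.79 and 1.19 and dendritic cell markers to 0 and 0.509, both platelet markers were at 0 in both libraries, and Flt3, Xcr1 and Ncr1 were at 0 in the PPARg-low library. Cells with under 20% ribosomal protein UMIs, here called ribosome-poor, were unevenly spread and made up 58.7% of PPARg-low and 23.3% of PPARg-negative cells. Ribosome-poor cells had higher median mitochondrial shares (6.80 and 6.92%) than the other, ribosome-rich cells (2.74 and 2.29%). The nuclear transcript Malat1 took a median of 8.13 and 8.07% of their UMIs, against 3.50 and 2.46% in ribosome-rich cells. Because this mix moved with the groups, results are also given within each kind of cell. In UMIs summed over cells, a lower level per cell and fewer cells with a transcript cannot be told apart.

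The receptors together made up 0.192% of UMIs in the PPARg-low library and 0.0629% in the PPARg-negative library. Of the 9 receptors, 6 were at least 1.5 times higher in the PPARg-low library with an interval above 1 (Pdcd1, Lag3, Tigit, Cd200r1, Havcr2 and Ctla4), and 0 were lower. Over all 9224 genes with 30 or more UMIs, 24.2% were higher and 4.47% lower by the same rule. The median ratio of the receptors was 4.07, against 1.22 over those genes. All 9 receptors reached 30 UMIs. The set thus held 6 receptors with ratios of 3.88 or more in summed UMIs and 3 (Btla, Cd5 and Cd96) with ratios below 1.5.

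Pdcd1, the PD-1 gene, had the largest ratio. It had 1343 UMIs, or 463 CPM, in the PPARg-low library and 196 UMIs, or 33.2 CPM, in the PPARg-negative library, a ratio of 13.9 (12.0 to 16.3). Lag3, whose product binds MHC class II, had 521 and 110 UMIs (180 and 18.7 CPM), a ratio of 9.63 (7.82 to 11.9). In both genes the counting intervals of the libraries were far apart.

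Ctla4 had the most UMIs of any receptor in the PPARg-low library, 1825 or 629 CPM, against 955 or 162 CPM in the PPARg-negative library. Its ratio, 3.88 (3.59 to 4.20), was below those of Pdcd1 and Lag3. Ctla4 lies between 2 genes of the same receptor family that promote activation: Icos was 2.94 times higher (2.70 to 3.19) and Cd28 had a ratio of 1.32 (1.22 to 1.42). Over all cells the ratio of Ctla4 was above those of both neighbours, with intervals apart. Within ribosome-rich cells, those with 20% or more ribosomal protein UMIs, Icos had 3.15 (2.77 to 3.59) and Ctla4 2.83 (2.52 to 3.19), with overlapping intervals. Within ribosome-poor cells Icos had 1.02 (0.917 to 1.14) and Ctla4 1.93 (1.72 to 2.16), with intervals apart.

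Tigit, which binds the nectin-like protein CD155, had 104 and 32 UMIs (35.8 and 5.43 CPM), a ratio of 6.61 (4.41 to 10.2). Cd200r1, the receptor of CD200, had 395 and 122 UMIs (136 and 20.7 CPM), a ratio of 6.58 (5.36 to 8.13). Cd200r1 has close copies beside it, and reads of such copies can be divided between them: Cd200r4 had 15 and 8 UMIs, Cd200r3 7 and 29, and Cd200r2 0 and 1. Havcr2, whose product TIM-3 binds galectin-9 and phosphatidylserine, had only 36 and 18 UMIs (12.4 and 3.05 CPM), a ratio of 4.07 (2.25 to 7.60). The intervals of these 3 ratios overlap, so their order cannot be read.

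The other 3 receptors did not differ by 1.5 times. Btla, which binds HVEM, had 110 and 208 UMIs (37.9 and 35.3 CPM), a ratio of 1.08 (0.845 to 1.36). Cd5, which tunes antigen receptor signalling from the thymus on, had 1001 and 1535 UMIs (345 and 260 CPM), a ratio of 1.33 (1.22 to 1.44). Cd96, another receptor of CD155, had 224 and 536 UMIs (77.2 and 90.9 CPM), a ratio of 0.849 (0.723 to 0.995). Tigit and Cd96, which share a ligand, thus had ratios of 6.61 and 0.849.

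**Figure D1:**
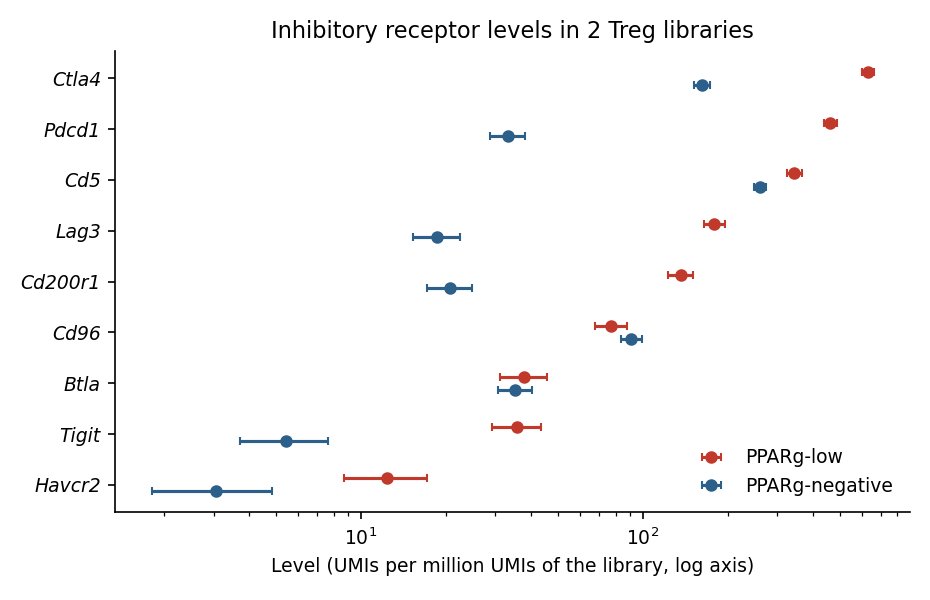
Level of each receptor in both libraries, as CPM on a log axis; bars are exact 95% Poisson intervals that cover counting error only. Pdcd1 stands at 463 against 33.2 and Lag3 at 180 against 18.7, while Btla, at 37.9 and 35.3, has overlapping bars.

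The order of the receptors by level differed between the libraries. Because 3′ UMIs count 1 end of each transcript, levels of different genes need no division by length, though capture can differ by gene. In the PPARg-low library the order was Ctla4, Pdcd1, Cd5, Lag3, Cd200r1, Cd96, then Btla and Tigit, whose intervals overlapped, and Havcr2. In the PPARg-negative library it was Cd5, Ctla4, Cd96, then Btla and Pdcd1 with overlapping intervals, Cd200r1 and Lag3 likewise, and Tigit and Havcr2 likewise. Pdcd1 supplied 24.2% of receptor UMIs in the PPARg-low library and 5.28% in the PPARg-negative library, while Cd5 supplied 18.0 and 41.4%.

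Splitting the cells by their ribosomal share left the higher calls in place for 5 receptors and made their ratios smaller within ribosome-poor cells. Pdcd1 had a ratio of 12.4 (10.2 to 15.2) within ribosome-rich and 6.62 (5.19 to 8.56) within ribosome-poor cells, and Lag3 one of 8.82 (6.36 to 12.4) and 3.54 (2.69 to 4.73). For Cd200r1 these were 6.47 (4.90 to 8.61) and 2.85 (2.07 to 4.01), and for Tigit 6.55 (3.88 to 11.4) and 3.18 (1.609 to 6.997). Ctla4 gave 2.83 (2.52 to 3.19) and 1.93 (1.72 to 2.16). Thus 5 of the 8 receptors with 30 or more UMIs in ribosome-rich cells were higher there and 0 lower, beside 17.2 and 3.92% of all genes measured in those cells. In ribosome-poor cells 5 of 9 were higher, beside 6.82% of genes. Havcr2 ended differently: 8 against 3 UMIs in ribosome-rich cells gave a ratio of 8.00 (1.92 to 46.8), and 28 against 15 UMIs in ribosome-poor cells gave 1.06 (0.548 to 2.14).

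Levels within PPARg-low cells also depended on the split, where ribosome-poor cells held receptor transcripts at higher CPM: Ctla4 was at 1109 CPM there and at 312 CPM in ribosome-rich cells, and Pdcd1 at 716 and 295 CPM. In the PPARg-negative library Ctla4 was at 576 and 110 CPM and Pdcd1 at 108 and 23.9 CPM. CPM is a share of UMIs, and ribosome-poor PPARg-low cells had a median of 978 UMIs against 2294 in ribosome-rich ones. In UMIs per PPARg-low cell the gaps were smaller, with Ctla4 at 1.35 and 0.816 and Pdcd1 at 0.870 and 0.773. Tigit, Btla, Cd200r1 and Cd96 had fewer UMIs per ribosome-poor than per ribosome-rich PPARg-low cell (Cd96 0.104 and 0.187). Within ribosome-poor cells Cd96 was the only receptor lower in the PPARg-low library by the rule, at 0.625 (0.465 to 0.841), where 5.40% of genes were lower, and Cd5 had a ratio of 0.818 (0.722 to 0.929). Cd5 had 1.06 (0.940 to 1.19) and Btla 0.911 (0.646 to 1.27) within ribosome-rich cells. How much of the differences over all cells comes from the mix of both kinds of cell was not tested beyond these values.

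**Figure D2:**
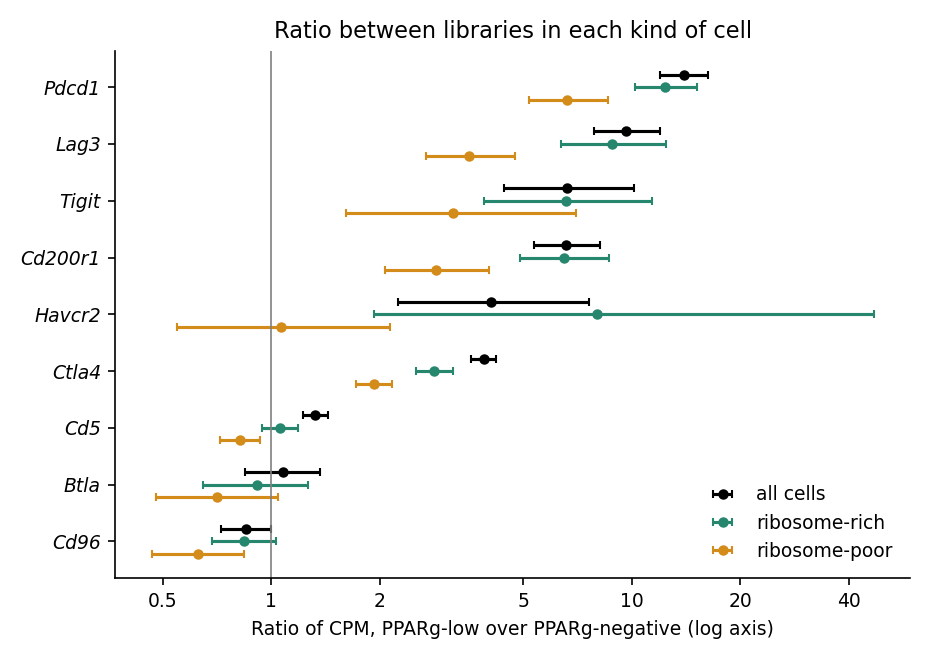
Ratio of CPM, PPARg-low over PPARg-negative, for each receptor over all cells and within ribosome-rich and ribosome-poor cells, on a log axis with exact 95% intervals. The ratio of Pdcd1 is 13.9 over all cells and 6.62 within ribosome-poor cells, and that of Havcr2 falls to 1.06 there.

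Transcripts per cell were compared at matched depth, with each cell thinned at random to 750 UMIs, which used 1381 PPARg-low and 2394 PPARg-negative cells. Ctla4 was detected in 35.3% (32.8 to 37.9%) of cells in the first and 11.3% (10.0 to 12.6%) in the second. Pdcd1 was detected in 28.0% (25.7 to 30.5%) and 2.92% (2.29 to 3.68%). The shares were 10.6 and 1.34% for Lag3, 10.9 and 1.59% for Cd200r1, 22.4 and 18.2% for Cd5 and 5.29 and 6.56% for Cd96. Before thinning, Ctla4 was detected in 52.2 and 25.4% and Pdcd1 in 42.3 and 5.51% of cells. Tigit was found in 2.68 and 0.543%, Havcr2 in 1.16 and 0.251% and Btla in 2.90 and 2.26%.

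Cells can carry free RNA, and the same share in transcripts that Tregs should lack sets the level to read these against. Of 20 markers of other cell types, the highest shares were 2.68% (Cd79b) in the PPARg-low and 1.96% (Cd8b1) in the PPARg-negative library, and the medians were 0.0724 and 0.0209%. The shares of Tigit and Havcr2 in the PPARg-low library, and of Lag3, Cd200r1, Tigit and Havcr2 in the PPARg-negative library, lay at or below those highest values and are read as background. Their summed UMIs, and their place among the receptors counted per cell below, carry the same limit. Among 1980 ribosome-rich cells of the PPARg-negative library 0 had Havcr2, a count that with a limit of 3 cells allows a share of up to 0.152% (exact upper bound 0.186%). Positive cells seldom held many copies: a PPARg-low cell with Ctla4 had on average 1.59 of its 750 UMIs from it, and one with Pdcd1 1.53.

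The number of different receptors per cell followed from these shares. PPARg-low cells had 1.193 receptors on average (1.136 to 1.252) and PPARg-negative cells 0.449 (0.423 to 0.477), a ratio of 2.66 (2.46 to 2.87). No receptor was detected in 30.9% of PPARg-low and 64.3% of PPARg-negative cells. Exactly 1 was found in 35.3 and 28.1%, and 3 or more in 12.7% (175 cells) and 1.34% (32 cells). The highest number was 6, in 3 PPARg-low cells, and 5, in 1 PPARg-negative cell. Zero detection at 750 UMIs is not absence of the protein or transcript.

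The mean also differed between the kinds of cell. Ribosome-rich cells had 0.785 receptors in the PPARg-low and 0.317 in the PPARg-negative library, a ratio of 2.48 (2.20 to 2.79). Ribosome-poor cells had 1.57 and 1.08, a ratio of 1.45 (1.30 to 1.62). A cell with 3 or more receptors was found among 3.03 and 0.202% of ribosome-rich cells and 21.5 and 6.76% of ribosome-poor cells. At the thinned depth, more receptors were thus detected on average in a ribosome-poor PPARg-negative cell than in a ribosome-rich PPARg-low cell. Before thinning these cells had median depths of 853 and 2294 UMIs. The 614 kept ribosome-poor PPARg-negative cells then held 1143 receptor UMIs, and the 668 kept ribosome-rich PPARg-low cells 1993. The order at matched depth therefore does not hold for all captured receptor UMIs per cell.

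**Figure D3:**
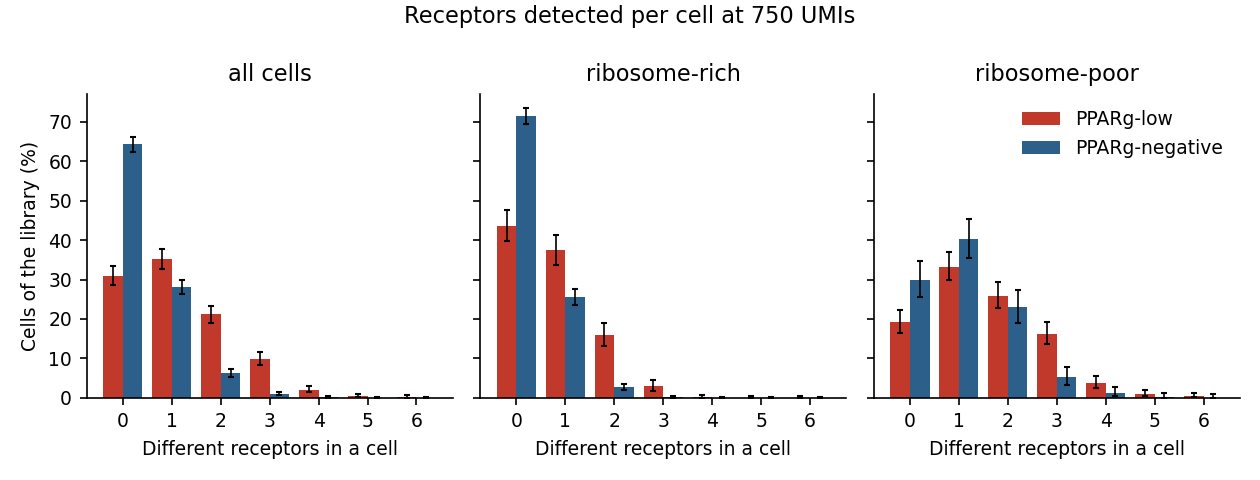
Share of cells by number of different receptors detected at 750 UMIs, for all, ribosome-rich and ribosome-poor cells; bars are exact 95% binomial intervals. No receptor was found in 30.9% of PPARg-low and 64.3% of PPARg-negative cells, and 3 or more in 12.7 and 1.34%.

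Cells with a receptor showed 94 different combinations in PPARg-low cells and 48 in PPARg-negative cells, numbers that grow with the number of positive cells. Among PPARg-low cells Ctla4 alone was in 169, Pdcd1 alone in 115, Cd5 alone in 101 and Pdcd1 with Ctla4 in 66. Among PPARg-negative cells Cd5 alone was in 308, Ctla4 alone in 158, Cd96 alone in 102 and Ctla4 with Cd5 in 46. Of the 136 PPARg-low cells with exactly 3 receptors, 83.1% had Ctla4, 72.1% Pdcd1, 53.7% Cd5 and 33.8% Lag3. Ctla4 was found together with Pdcd1, whatever else the cell held, in 177 PPARg-low cells and with Cd5 in 126, and in the PPARg-negative library with Pdcd1 in 19 and with Cd5 in 71.

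Pairs of receptors were set against the product of their shares, which is the number of cells expected if detection of each were unrelated. In the PPARg-low library 22 of 36 pairs had a product of 5 or more cells; their median of observed over product was 1.251. Within ribosome-rich cells the median was 1.07 over 10 pairs and within ribosome-poor cells 1.07 over 23. The PPARg-negative library gave 1.45 over 9 pairs, 0.861 over 4 within ribosome-rich and 0.970 over 11 within ribosome-poor cells. The medians within each kind of cell were thus nearer to or below 1. Lag3 was in 18.1% of PPARg-low cells with Pdcd1 and 7.75% of cells without it, and in 23.8 and 12.6% within ribosome-poor cells, with intervals apart in both. Within ribosome-rich cells these were 7.41 and 3.43%, with overlapping intervals. Pdcd1 was in 36.3% of PPARg-low cells with Ctla4 and 23.5% of those without, and in 42.8 and 27.9% within ribosome-poor but 21.1 and 20.3% within ribosome-rich cells.

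**Figure D4:**
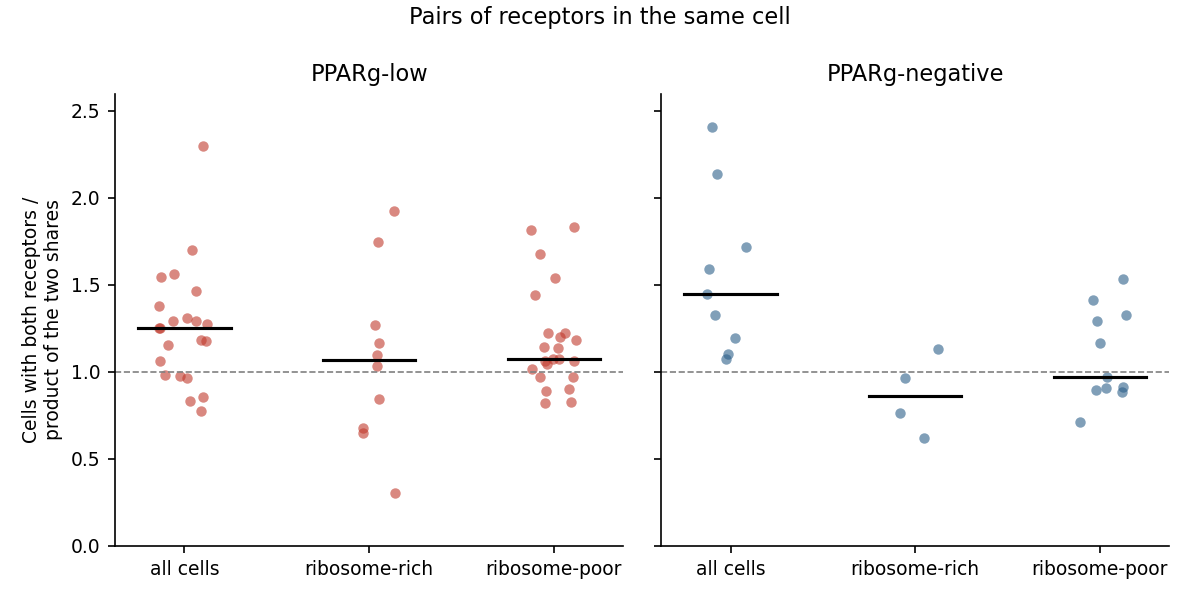
Cells with both receptors of a pair divided by the product of their shares, for pairs with a product of at least 5 cells, in each library and kind of cell; black lines are medians and sideways spread of points has no meaning. The median is 1.251 over all PPARg-low cells and 1.07 within ribosome-rich and ribosome-poor cells.

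Other transcripts divided the cells too. Klrg1, an inhibitory receptor of differentiated Tregs, was detected in 568 PPARg-low cells, which had 1.47 of the 9 receptors on average (1.37 to 1.57), against 1.002 (0.935 to 1.07) in the 813 without it. Within ribosome-poor cells these were 1.74 and 1.37 (intervals apart), and within ribosome-rich cells 0.903 and 0.738 (intervals overlapping). Among PPARg-negative cells 82 had Klrg1, with 0.8415 receptors (0.655 to 1.065), against 0.435 (0.409 to 0.463) in those without it. For ribosome-poor PPARg-negative cells these means were 1.02 and 1.09, with overlapping intervals. PPARg-low cells with Ccr2, Itgae or Gzmb (188 cells) had Pdcd1 in 17.0% against 29.8% of the others, and Ctla4 in 46.8 against 33.5%. Ribosome-poor cells made up 81.9% of the former and 47.5% of the others. Within ribosome-poor cells Pdcd1 was in 18.8 against 39.3%. Ctla4 was there in 46.6% of the others, close to its share in the 154 cells with these transcripts. Within ribosome-rich cells, only 34 with these transcripts, Ctla4 was in 32.4 against 21.7%. In the PPARg-negative library the 750 cells with Ccr7, Satb1 or Ly6c1, transcripts of resting T cells, had 0.371 receptors (0.328 to 0.417) and the other cells 0.485 (0.452 to 0.520). Within ribosome-poor cells those means were 1.13 and 1.07, with overlapping intervals. Cycling cells (Mki67, Top2a or Birc5) numbered 40 and 38, and resting-marker cells 37 in the PPARg-low library, too few for shares.

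Cells with many receptors were next compared with cells without any, from the same thinned UMIs. In the PPARg-low library 175 cells with 3 or more receptors were set against 427 with 0, and in the PPARg-negative library, where only 32 cells had 3 or more, 182 with 2 or more against 1540 with 0. These classes are ranges of a count and not cell types. Ribosome-poor cells made up 88.6% of the first and 32.6% of the second class in the PPARg-low library, and 67.6 and 8.05% in the PPARg-negative library. Among the PPARg-low cells, 12.7% of 2283 other genes were higher and 12.8% lower in the many-receptor class, and among the PPARg-negative cells 16.6 and 5.57% of 4469. Scrublet marked 0 cells of either many-receptor class as doublets. It marked only 11 of 1619 kept PPARg-low and 8 of 2633 kept PPARg-negative cells, so the 0 says little about these classes. A UMI of an other-cell marker was in 12.0% of many-receptor and 7.03% of receptor-free PPARg-low cells (within ribosome-poor cells 12.3 and 11.5%).

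The PPARg-low cells with many receptors had more Il10, the gene of the suppressive cytokine IL-10, with 39 against 8 UMIs and a ratio of 11.9 (5.48 to 29.5). Tnfrsf9 (4-1BB) had a ratio of 4.10 (3.50 to 4.83), Tnfrsf4 (OX40) of 4.03 (3.599 to 4.50), Nkg7 of 6.54 (3.95 to 11.2), Penk of 3.85 (3.03 to 4.91), and Ccr8, a chemokine receptor, of 6.78 (3.06 to 16.5). Fgl2, Gzmb, Tmem158 and Itm2c had ratios of 2.79 to 5.10. Within ribosome-poor cells, 155 with many against 139 with 0, all 10 of these genes kept an interval above 1: Il10 had 38 against 2 UMIs, Penk a ratio of 4.18 and Gzmb one of 1.58. Within ribosome-rich cells, only 20 with many against 288 with 0, 3 of the 10 did (Tnfrsf4, Penk and Itm2c), and Tnfrsf9 had 1.07 (0.504 to 2.04). Klf2, a factor of resting and recirculating T cells, had 17 against 171 UMIs, a ratio of 0.243 (0.138 to 0.400), and Tmsb10 a ratio of 0.380. Evl had 3 against 81 UMIs and Ndufa8 2 against 45, ratios of 0.0904 and 0.108. Cyth1 had 1 against 38 UMIs, a ratio of 0.0642. Within ribosome-poor cells 4 of these 5 lower genes, all but Cyth1, kept an interval below 1, and within ribosome-rich cells only Tmsb10 did. The ratio of Tmsb10 was 0.785 within ribosome-poor and 0.621 within ribosome-rich cells. Values of single genes depended on the random draw of UMIs: in 3 other draws Cyth1 was at 0.510 to 0.640, Ndufa8 at 0.145 to 0.433, Evl at 0.0755 to 0.194, Il10 at 6.52 to 9.97, Nkg7 at 3.94 to 7.97, Ccr8 at 4.05 to 7.80, Fgl2 at 2.72 to 3.09 and Tmem158 at 3.04 to 3.46. Of the 10 genes named as higher in the PPARg-negative library, Tnfrsf9 (5.70) and Tnfrsf4 (3.595) kept an interval above 1 within ribosome-poor cells and 8 did not, among them Maf (0.960) and Icos (0.840). Within ribosome-rich cells, 59 with many against 1416 with 0, 7 of the 10 did, Maf (5.33) among them. Over all PPARg-negative cells the others were S100a6 (5.20), Fgl2 (6.51), Vmp1 (4.63), Tnfrsf1b (5.11), Nkg7 (6.97) and Faf2 (6.68, but 1.90 to 2.68 in the other draws). The 5 named as lower there, Tmsb10, Eef1b2, Snrpd3, Ptp4a3 and Hspe1, had ratios of 0.218 to 0.458, and 0 of the 5 kept an interval below 1 within ribosome-poor cells and 2 (Tmsb10 and Ptp4a3) within ribosome-rich cells. In the other draws Eef1b2 was at 0.576 to 0.717, Hspe1 at 0.597 to 0.689, Snrpd3 at 0.533 to 0.554 and Ptp4a3 at 0.170 to 0.558.

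**Figure D5:**
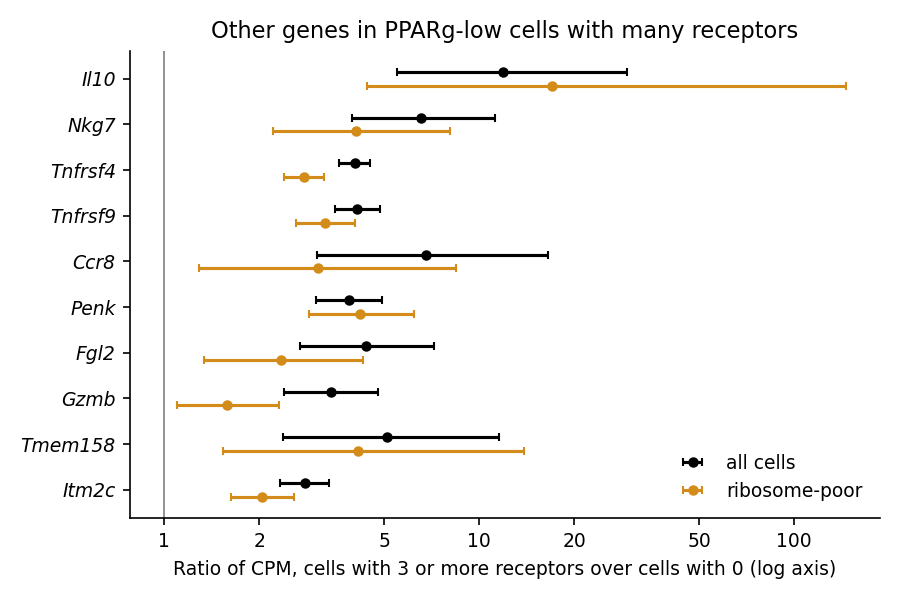
Ratio of CPM in PPARg-low cells with 3 or more receptors over cells with 0, for the 10 highest-ranked other genes, over all cells and within ribosome-poor cells, on a log axis with exact 95% intervals. The genes were picked by their all-cell intervals, which therefore lie above 1. The 10 ribosome-poor intervals, from a part of the same cells, also lie above 1. Il10 stands at 11.9 over all cells and 17.0 within ribosome-poor cells.

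Genes that work with the receptors were compared the same way, and their counts are to be read beside the 24.2% of all measured genes that were higher and 4.47% that were lower. Of 11 measured ligand genes, 4 differed upward and 1 downward in PPARg-low cells: Lgals3 (5.78), Pdcd1lg2 (4.09), Cd80 (2.62) and Cd274 (1.72) were higher and H2-Aa was lower (3 against 32 UMIs). Of 15 signalling genes 6 were higher and 0 lower, led by Ubash3b (3.76), Dok1 (2.14), Inpp5d (2.02) and Ptpn22 (1.78). Of 7 other inhibitory receptors 4 were higher, Klrg1 (15.9), Lilrb4a (17.2; 76 against 9 UMIs), Cd101 (2.53) and Vsir (2.13), and Pecam1 was lower (0.568). The activating counterparts had 2 of 4 higher (Icos and Cd4) and 1 lower, Cd226 (0.426), the receptor that competes with TIGIT and CD96 for CD155. The median ratios were 1.31 for ligands, 1.17 for signalling, 2.13 for other receptors and 1.60 for counterparts, against 1.22 over all measured genes.

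Among 9 genes of receptor handling, 5 were higher and 1 lower, with a median of 1.58. Lrba, which keeps CTLA-4 from lysosomes, had a ratio of 2.87 (2.104 to 3.93), and Trat1, an adaptor that brings CTLA-4 to the surface, had 3 against 40 UMIs. Rab11a (1.58) and Adam10 (1.72) were also higher. Among 15 measured transcription factors of activated or resting T cells 11 were higher and 2 lower, with a median of 2.91. Nr4a2 (7.23), Nr4a3 (6.37) and Tox2 (5.73) were higher, as were Prdm1 (4.24), Maf (3.67) and Batf (3.55), while Bach2 (0.141) and Tcf7 (0.257) were lower. Within ribosome-poor cells, where 6.82% of all measured genes were higher and 5.40% lower, 5 of 11 factors were higher and 1 lower, and 3 of 6 other receptors were higher and 1 lower. There 1 of 8 ligands, 1 of 15 signalling genes, 0 of 7 handling genes and 0 of 4 counterparts were higher, with Icos at 1.02.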

How the data were processed

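Tregs of male reporter mice were pooled and sorted into 2 groups of 1 library each. The authors deposited raw UMI count matrices made with Chromium 3′ v2 libraries, per the labels' protocols, and Cell Ranger 2.1.0 with mm10, per the submitters' processing notes. The names of the files labelled PPARg-low say pos instead; the label was followed, and the conflict is unresolved. Cells with over 10% mitochondrial UMIs or under 200 genes were left out. Levels are CPM, and a ratio is that of PPARg-low over PPARg-negative, with a zero entered at a floor of 3 counts. A gene counted as higher or lower at a ratio of 1.5 with its exact conditional binomial interval on the same side of 1. For numbers per cell, cells were thinned to 750 UMIs (random seed 1). Doublets were called with Scrublet (scanpy 1.11.5) and kept.

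The receptors and all lists were chosen with earlier results of these data known. Named genes were all 9 receptors, Pparg and Foxp3, up to 4 called genes per list, ranked by the interval bound nearest to 1, and the 10 highest and 5 lowest genes of many-receptor cells; Cd274, Pecam1, Tcf7, Prdm1, Maf, Batf, the Cd200r1 copies and the genes beside the receptors were named after their values were seen. Of the 14 other inhibitory receptors 13 were matched. The value of 1 marker gene is not reported here. Intervals were tested on simulated Poisson counts, the counting error they assume, so the test does not cover uneven spread of UMIs over cells. Python 3.11.15, numpy 2.4.6, scipy 1.17.1 and pandas 2.3.3 were used. Alternatives changed cell filters, doublets, scaling, cell weight, ratio cutoff, thinning and the members; 3 further random seeds were added after seeing the data.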

Additional observations from a re-analysis of the deposited data

How the results depend on the processing

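No paired analysis was possible because each group had 1 library and the labels give no replicate numbers, so no replicate could be left out either. The counts of receptors higher (6) and lower (0) stayed the same under the alternatives for filters, doublets, scaling and cell weight and at a ratio of 2, while at the lowest ratio cutoff run 7 were higher, Cd5 being added, with receptor ratios of 11.4 to 13.9 for Pdcd1, 7.52 to 10.3 for Lag3 and 3.18 to 3.98 for Ctla4. Of other values, 69 of 81 receptor ratios stayed within their interval and 12 did not, and 94 of 144 shares did and 50 did not. The 69 include all 9 ratios at each ratio cutoff run, where a change of cutoff cannot move a ratio.

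The number of receptors per cell moved with depth and filters. At a mitochondrial share of at most 5% the mean was 0.951 and 0.370, the share of cells with 1 or more 62.7 and 30.9%, and with 3 or more 6.21 and 0.479% (PPARg-low, then PPARg-negative). With no mitochondrial filter the PPARg-negative mean was 0.493 and the share 37.8%. At 500 UMIs these were 0.901 and 0.359, 58.5 and 29.8%, and 6.30 and 0.760%, and at 1000 UMIs 1.35 and 0.531, 73.6 and 41.7%, and 16.2% (PPARg-low). Without thinning they were 2.01 and 1.04, 87.0 and 66.9%, and 34.5 and 7.52%, and the ratio of means was 1.93. Without Ctla4 they were 0.840 and 0.336, 56.8 and 29.1%, and 4.49 and 0.418%. The ratio of means stayed within its interval under every other alternative run.

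Among lists, genes lower among ligands were 3 at a mitochondrial share of at most 5%, without ribosomal protein and mitochondrial UMIs and relative to the all-gene median, 2 at 500 genes per cell, and 0 with no mitochondrial filter and with cells weighted equally. Signalling genes higher were 3, and handling genes higher 1, without ribosomal protein and mitochondrial UMIs, relative to the all-gene median and at a ratio of 2. At that ratio 1 counterpart was higher and 0 other receptors were lower. The cause was not tested.

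At 1000 UMIs the genes lower in many-receptor PPARg-negative cells were 91 in place of 249, and Cyth1 (1.11) and Snrpd3 (1.18) reversed. Those ratios, 0.0642 and 0.256 as first drawn, depend on which UMIs the random thinning drew: with 3 other seeds at 750 UMIs, chosen after seeing the data, Cyth1 was 0.510 to 0.640 and Snrpd3 0.533 to 0.554. All 10 named higher PPARg-low genes kept intervals above 1 with each seed (Il10 6.52 to 9.97), and of 5 named lower genes 4 kept intervals below 1. Of the PPARg-negative genes, 10 of 10 higher but 3 of 5 lower ones stayed past the ratio of 1.5 in each draw, Eef1b2 and Hspe1 being lost. By intervals, 9 of 10 higher and 4 of 5 lower ones stayed on the same side of 1 in each draw, Faf2 and Ptp4a3 being lost.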
